A study of Mus musculus with 12 samples.

Results

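The genes described here are the nuclear genes of the mitochondrial respiratory chain and ATP synthase, taken as the rows of the series counts table whose names start with Nduf, Uqcr, Cox4 to Cox8 or Atp5 or are Sdha, Sdhb, Sdhc or Sdhd. The rule found 87 of 12975 genes. They divided into 35 complex I subunits, 6 complex I assembly factors (Ndufaf genes), 4 complex II subunits, 8 complex III subunits, 17 complex IV genes, 15 ATP synthase subunits, and Atp5s and Atp5sl, which carry the Atp5 name but are not subunits of the enzyme. Ndufa4 and Ndufa4l2 were placed with complex IV, where the Ndufa4 protein is now known to sit. Respiratory chain genes encoded in mitochondrial DNA, Cox6a2 and Cox7b2 were not analysed here.

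The respiratory chain passes electrons from NADH (complex I) and succinate (complex II) through complex III to oxygen at complex IV, and ATP synthase uses the proton gradient that this builds to make ATP. Most subunits are housekeeping proteins, but some positions in complex IV and in the c-ring of ATP synthase can be filled from alternative genes whose expression depends on the tissue. Enteric glial cells are the glia of the gut's own nervous system, and astrocytes, their counterparts in the brain, are known for a strongly glycolytic metabolism.

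RNA came from 12 pull-down libraries of small intestinal muscularis from 6 PLPCreERT2 Rpl22HA mice. In these mice a tamoxifen-inducible Cre, driven by a promoter that is active in enteric glia, switches the ribosomal protein Rpl22 to an HA-tagged form, so that an anti-HA antibody precipitates ribosomes of the recombined cells with their RNA. Each mouse gave 1 HA and 1 IgG (isotype control) library from the same homogenate, and 3 mice were naive (T0) while 3 were taken 3 h after intestinal manipulation (T3), a surgical handling of the gut. All 6 mice, naive ones included, had received 2 tamoxifen injections of 100 µl at 15 mg/ml from an age of 10 to 12 weeks and were used 3 to 4 weeks after the first injection. IgG libraries measure what sticks to beads and antibody without the tag, and the T0 mice are labelled naive.

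Library totals were 1789710 to 2870591 UMIs (unique molecular identifiers, 1 per captured RNA molecule) in HA T0, 388214 to 1289833 in IgG T0, 1221788 to 1495439 in HA T3 and 88136 to 248522 in IgG T3, so the IgG T3 values were the least precise. Glial markers were enriched by the HA antibody, 13 of 14 tested at T0 and 10 at T3. Interstitial cells of Cajal are the pacemaker cells of gut muscle. Of their 5 markers 4, Kit and Ano1 among them, were also higher in HA at T0, and their summed level was 3147 to 4185 CPM (UMI counts scaled to the library total) in HA T0 against 293 to 400 in IgG T0. Smooth muscle markers were lower in HA, 14 of 14 at T0 and 13 of 14 at T3. In bulk libraries like these, fewer cells of a type and less RNA per cell cannot be told apart.

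The first comparison asked whether the RNA of the HA pull-down differs from the background pull-down of the same tissue in its respiratory chain genes. At T0 the members as a group were centred where all genes were, with a median log2 fold change of -0.01 over the 85 tested, beside -0.02 for all 9823 genes. Of the 85 members, 14 passed the threshold (edgeR quasi-likelihood F-test, Benjamini-Hochberg adjustment over all genes tested, threshold 0.05), 6 higher and 8 lower in HA, which is 16.5% of members beside a background of 30.3% of all genes. With the animal as a block, 23 members passed, 12 higher and 11 lower, which is 27.1% of members beside 38.8% of all genes in the same fit. The members that stood out on the higher side were 3 alternative subunits of complex IV, and their promoters are shown first.

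**Figure D1:**
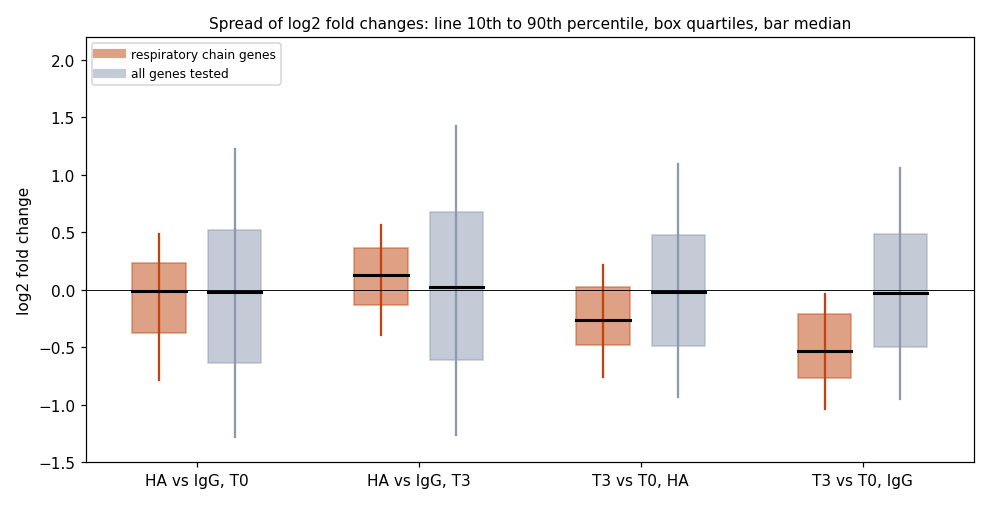
Log2 fold changes of respiratory chain genes (orange) and of all genes tested (grey) in the 4 comparisons of 2 groups, with the 10th to 90th percentile as a line, the quartiles as a box and the median as a bar. The respiratory chain medians were -0.01 and 0.13 for HA against IgG at T0 and T3, and -0.26 and -0.53 for T3 against T0 in HA and in IgG.

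The promoter sequences of these 3 genes are printed with those of the widely expressed gene for the same position in the enzyme, to show how the members of each pair differ. They run from 250 bases before to 50 bases after the RefSeq start site (GRCm38.p6), 5′ to 3′ on the gene's strand, with capitals for matches on either strand to the core letters of 3 factors known to control nuclear respiratory genes, NRF1 (GCGCATG), ETS factors such as GABP (CCGGAAG) and YY1 (AANATGGC). Cox7a1 lies at chr7:30183921-30184220 (plus strand) and Cox7a2 at chr9:79759804-79760103 (minus strand).
Cox7a1: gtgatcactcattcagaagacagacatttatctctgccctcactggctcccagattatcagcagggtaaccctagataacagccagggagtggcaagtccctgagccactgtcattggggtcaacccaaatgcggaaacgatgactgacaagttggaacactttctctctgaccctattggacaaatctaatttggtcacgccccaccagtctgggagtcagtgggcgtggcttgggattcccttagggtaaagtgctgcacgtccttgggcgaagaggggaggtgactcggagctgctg
Cox7a2: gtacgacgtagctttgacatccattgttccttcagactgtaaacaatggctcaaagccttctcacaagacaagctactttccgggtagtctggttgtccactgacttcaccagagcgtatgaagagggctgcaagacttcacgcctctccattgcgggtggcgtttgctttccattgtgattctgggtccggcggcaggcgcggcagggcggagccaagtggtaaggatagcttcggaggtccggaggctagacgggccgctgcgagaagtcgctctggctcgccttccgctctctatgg
Cox8b lies at chr7:140900397-140900696 (minus strand) and Cox8a at chr19:7217567-7217866 (minus strand).
Cox8b: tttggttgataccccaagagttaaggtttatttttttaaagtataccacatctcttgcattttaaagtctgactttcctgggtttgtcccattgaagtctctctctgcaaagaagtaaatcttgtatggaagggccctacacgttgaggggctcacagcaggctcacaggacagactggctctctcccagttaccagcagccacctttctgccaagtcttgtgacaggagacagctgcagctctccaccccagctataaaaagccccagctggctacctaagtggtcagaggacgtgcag
Cox8a: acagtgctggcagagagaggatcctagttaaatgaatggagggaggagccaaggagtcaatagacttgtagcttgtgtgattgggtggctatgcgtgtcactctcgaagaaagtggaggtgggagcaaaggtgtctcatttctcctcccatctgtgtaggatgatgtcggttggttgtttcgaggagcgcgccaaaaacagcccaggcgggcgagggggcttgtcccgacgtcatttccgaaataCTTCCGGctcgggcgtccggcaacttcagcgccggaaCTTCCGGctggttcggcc
Cox6b2 lies at chr7:4753045-4753344 (minus strand) and Cox6b1 at chr7:30626065-30626364 (minus strand).
Cox6b2: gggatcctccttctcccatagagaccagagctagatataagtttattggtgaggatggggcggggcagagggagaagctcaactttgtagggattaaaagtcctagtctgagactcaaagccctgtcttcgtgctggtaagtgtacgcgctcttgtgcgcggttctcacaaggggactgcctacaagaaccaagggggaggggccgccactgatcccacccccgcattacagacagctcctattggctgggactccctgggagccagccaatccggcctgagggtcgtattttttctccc
Cox6b1: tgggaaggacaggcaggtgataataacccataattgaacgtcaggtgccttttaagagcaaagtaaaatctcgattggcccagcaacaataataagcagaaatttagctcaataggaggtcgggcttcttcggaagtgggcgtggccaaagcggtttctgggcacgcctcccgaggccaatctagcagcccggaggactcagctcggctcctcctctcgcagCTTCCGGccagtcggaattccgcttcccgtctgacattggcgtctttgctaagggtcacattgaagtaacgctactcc
Cox8a and Cox6b1 held ETS letters in these windows, and the windows of Cox7a1, Cox7a2, Cox8b and Cox6b2 held no match to the 3 sets of letters. Among the 70 members with a promoter entry under their own symbol, 14 (20.0%) held the NRF1 letters, against 4.41% of the promoters of all 27025 genes. The ETS letters were found in 17 members (24.3%), against 9.93% of all genes, and the YY1 letters also in 17, against 6.96%. Matches of the 3 sets may overlap one another, and a match describes letters and not a bound site.

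Cox7a1, the form of subunit 7a known from heart, skeletal muscle and brown fat, was measured at 183, 175 and 282 CPM in the HA T0 libraries of animals 1, 2 and 4 and at 67.0, 48.0 and 73.7 CPM in their IgG libraries. Every HA library was above every IgG library, and the log2 fold change was 1.71 (SE 0.24, adjusted p 0.000153). The gene lies at chr7:30184144-30186078 on the plus strand (GRCm38, GENCODE M21). At T3 it stood at 149, 109 and 148 CPM in the HA libraries of animals 1, 3 and 4, and at 11.3, 76.1 and 28.2 CPM in IgG, again without overlap (log2 fold change 2.00, SE 0.43, adjusted p 0.00265). Thinned to the depth of the shallowest library, this T3 difference was 1.40 with an adjusted p of 0.0643.

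Cox8b, the heart, skeletal muscle and brown fat form of subunit 8, showed the same order at T0. It was at 69.1, 88.8 and 117 CPM in HA and at 18.0, 20.6 and 37.2 CPM in IgG, with the log2 fold change at 1.71 (SE 0.30, adjusted p 0.000802). At T3 the HA libraries held 63.8, 50.2 and 70.8 CPM and the IgG libraries 0, 43.5 and 32.2 CPM. The groups did not overlap at T3, but the difference of 1.23 did not pass the threshold (SE 0.50, adjusted p 0.0901), and the IgG T3 values rest on 0, 4 and 8 UMIs.

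Cox6b2, known as the testis form of subunit 6b, was at 122, 62.6 and 106 CPM in HA T0 and at 12.9, 17.1 and 36.4 CPM in IgG T0. The lowest HA library was above the highest IgG library, with a log2 fold change of 1.94 (SE 0.36, adjusted p 0.00151). At T3 the values were 72.0, 68.9 and 72.4 CPM in HA against 0, 21.7 and 16.1 CPM in IgG, a log2 fold change of 2.41 (SE 0.53) at an adjusted p of 0.00317. IgG T3 counts were 0, 2 and 4 UMIs here, so the size of the T3 difference is poorly fixed.

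Their partners did not pass the test between HA and IgG, with log2 differences at T0 of -0.04 for Cox7a2 (adjusted p 0.896), -0.38 for Cox8a (0.205) and 0.22 for Cox6b1 (0.420). The share of each isoform within its pair therefore showed the contrast as well. Cox7a1 made up 21.9, 22.6 and 29.3% of the Cox7a1 and Cox7a2 UMIs in HA T0 and 7.83, 7.89 and 10.8% in IgG T0. Cox8b made up 3.89, 7.22 and 8.56% of its pair in HA T0 and 1.00, 1.35 and 1.88% in IgG T0. For Cox6b2 the shares were 11.1, 6.28 and 9.31% in HA T0 against 1.37, 2.51 and 3.99% in IgG T0. HA and IgG shares did not overlap at T0 for any of these 3 pairs, which 3 libraries against 3 cannot carry below an exact two-sided permutation p of 0.10. The 3 genes were singled out from these same T0 libraries, so their T0 shares are not a separate result. At T3 the shares of Cox7a1 and Cox6b2 did not overlap either. Those of Cox8b overlapped at T3, with 4.32 to 6.33% in HA and 0 to 4.82% in IgG.

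**Figure D2:**
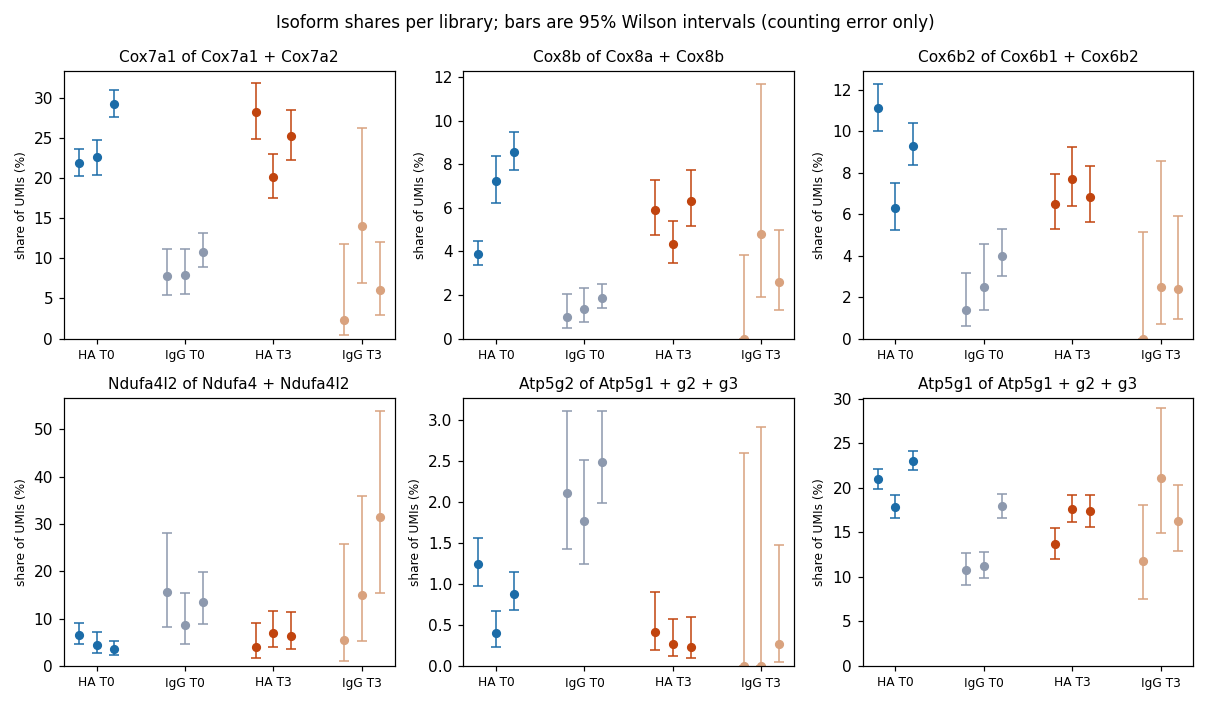
Share of an isoform's UMIs among the UMIs of its gene family, in percent, for each of the 12 libraries, with 95% Wilson intervals that cover counting error only. Shares of Cox7a1, Cox8b and Cox6b2 were higher in HA than in IgG libraries at T0, and the IgG T3 intervals were wide, as for Cox7a1 in the IgG T3 library of animal 3 (6.95 to 26.2%).

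Between T0 and T3 the ranges of these shares overlapped in HA libraries. The mean Cox7a1 share was 24.6% ± 4.11 at T0 (SD, 3 HA libraries) and 24.5% ± 4.11 at T3, that of Cox8b 6.56% ± 2.4 and 5.51% ± 1.06, and that of Cox6b2 8.91% ± 2.45 and 7.01% ± 0.628. The log2 fold changes of the isoforms themselves from T0 to T3 in HA were -0.39 for Cox7a1 (adjusted p 0.141), -0.30 for Cox8b (0.283) and -0.19 for Cox6b2 (0.534). With 3 libraries a group, these p-values do not show that the levels stayed the same.

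Cox7a1 and Cox8b are also transcripts of fat and striated muscle, so markers of both tissues, chosen after the values of the isoforms were seen, were read in the same libraries. The 7 adipocyte markers summed to 320 to 692 CPM in HA T0 and 732 to 1078 in IgG T0, and 4 of the 6 tested were lower in HA with 0 higher. All 6 had an unadjusted p under 0.05 in edgeR. Cidea, a marker of brown fat, was among the 6 and went the other way without passing the adjusted threshold. It was at 31.9, 32.4 and 29.3 CPM in HA T0 and 15.5, 17.1 and 21.7 in IgG T0, without overlap (log2 fold change 0.70). The 10 striated muscle markers summed to 350 to 640 CPM in HA T0 and 1137 to 1303 in IgG T0, and the 3 tested were lower in HA. None of these 17 markers was at 0 in every library of HA T0 or IgG T0. Of the cell marker lists, glia (13 of 14 tested) and interstitial cells of Cajal (4 of 5) had calls higher in HA at T0. Which cells carried Cox7a1, Cox8b and Cox6b2 was not tested.

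The other members higher in HA at T0 were the complex I subunits Ndufa13 (log2 fold change 0.58, adjusted p 0.0303), Ndufa8 (0.51, 0.0428) and Ndufa1 (0.52, 0.0496), which lost the call when single libraries were left out. Cox4i2 and Ndufa4l2, isoforms known to respond to low oxygen and to mark mural cells of vessels, pointed the other way without passing the test, at -1.06 (adjusted p 0.113) and -0.92 (0.0935). Both were low: Cox4i2 stood at 6.91, 5.03 and 4.18 CPM in HA T0 and at 18.0, 8.57 and 9.30 CPM in IgG T0.

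On the lower side, Ndufab1, the mitochondrial acyl carrier protein that is also a complex I subunit, was at 242, 181 and 248 CPM in HA T0 and 536, 545 and 361 CPM in IgG T0. The groups did not overlap, and the log2 fold change was -1.12 (SE 0.21, adjusted p 0.00137). Thinned to the shallowest library it was -0.73 (adjusted p 0.0765). Cox7b, another small subunit of complex IV, was at 441, 344 and 398 CPM in HA and 878, 686 and 601 CPM in IgG, with a log2 fold change of -0.90 (SE 0.21 and adjusted p 0.00466). Atp5j, a subunit of the stalk of ATP synthase, was at 567, 419 and 438 CPM in HA and 886, 787 and 817 CPM in IgG, a log2 fold change of -0.83 (SE 0.20) with an adjusted p of 0.00572.

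Atp5g1, Atp5g2 and Atp5g3 encode the same mature c-ring subunit of ATP synthase behind different import sequences, and the 3 genes differed in how they were pulled down. Atp5g2 was at 26.1, 7.26 and 19.5 CPM in HA T0 and 61.8, 51.4 and 58.1 CPM in IgG T0, lower in each HA library (log2 fold change -1.68, SE 0.37, adjusted p 0.00418). Atp5g3 was also lower in HA, by -0.55 (adjusted p 0.0472), while Atp5g1 was at 0.24 (adjusted p 0.411). Atp5g2 made up 1.24, 0.394 and 0.878% of the UMIs of the 3 genes in HA T0 and 2.10, 1.76 and 2.49% in IgG T0.

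The remaining members lower in HA at T0 were Uqcrc2, a core subunit of complex III (log2 fold change -0.80, adjusted p 0.0101), Cox7a2l, an assembly factor of supercomplexes (-0.77, 0.0205), and Atp5f1, a subunit of the ATP synthase stator (-0.54, 0.0379). Uqcrb of complex III was further apart but varied more between animals, at 161, 60.9 and 31.7 CPM in HA against 464, 321 and 312 CPM in IgG. Its log2 fold change was -2.11 with an adjusted p of 0.0774, and with the animal as a block the adjusted p was 0.00158. Of 18 subunits listed as core across the 5 complexes, some of them outside the catalytic core, Uqcrc2 was the 1 member called at T0.

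Leaving out each library in turn left 8 to 12 members past the threshold. Cox7a1, Cox8b, Cox6b2, Ndufab1, Atp5g2, Cox7b and Atp5j kept their call each time. Calls were lost for Atp5f1 and Atp5g3 without HA T0 replicate 1, 2 or 4 or IgG T0 replicate 1 or 2, for Ndufa8 without HA T0 replicate 1, 2 or 4 or IgG T0 replicate 1 or 4, and for Ndufa1 without any of the 6 but IgG T0 replicate 1. Ndufa13 lost its call without HA T0 replicate 1 or 2 or IgG T0 replicate 2 or 4, Cox7a2l without HA T0 replicate 4 or IgG T0 replicate 1 or 2, and Uqcrc2 without HA T0 replicate 2 or IgG T0 replicate 4.

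At T3, 78 members were tested between HA and IgG and 5 passed the threshold, 6.41% beside a background of 21.9% of 7200 genes (11.8% higher and 10.2% lower). Besides Cox7a1 and Cox6b2, Ndufa7 of complex I was higher (log2 fold change 0.80, adjusted p 0.0424), and Uqcrb (-0.95, 0.0302) and Cox7b (-0.79, 0.0342) were lower. Cox7b stood at 270, 243 and 283 CPM in HA T3 and 545, 391 and 519 CPM in IgG T3, so the order of T0 was seen again in libraries of other animals. How many members passed and in which direction varied with the fit. RLE scaling gave 2 higher and 3 lower, and total counts as scaling gave 2 higher and 6 lower (21.6% of all genes called). DESeq2, another model, gave 4 and 5 (20.6% of all genes). A fit over all 12 libraries, which changes the filter, the scaling and the estimate of the spread together, gave 16 higher and 0 lower, 18.8% of its 85 members beside 20.5% of 10314 genes. Leaving out a library left 2 to 9 members called, and Cox7b, Ndufa7 and Uqcrb lost their calls without HA T3 replicate 3 or 4 or IgG T3 replicate 1 or 4, Cox7b and Ndufa7 also without HA T3 replicate 1. Without the 2 shallowest IgG T3 libraries, which leaves 1 IgG library that is assumed to vary as the HA libraries do, 9 members passed, 4 higher and 5 lower, 10.8% beside 20.1% of all genes.

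The second comparison asked how respiratory chain RNA changed 3 h after intestinal manipulation. In CPM the 87 genes together fell in both pull-downs. They summed to 53615, 49854 and 54757 CPM in HA T0 and to 37864, 37937 and 38920 CPM in HA T3. In IgG the sums were 55155, 50412 and 49268 CPM at T0 and 36546, 36665 and 39220 CPM at T3. Every T3 library was below every T0 library of either antibody, and the mean fell by 27.5% in HA and fell by 27.4% in IgG. HA and IgG sums overlapped at each time.

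**Figure D3:**
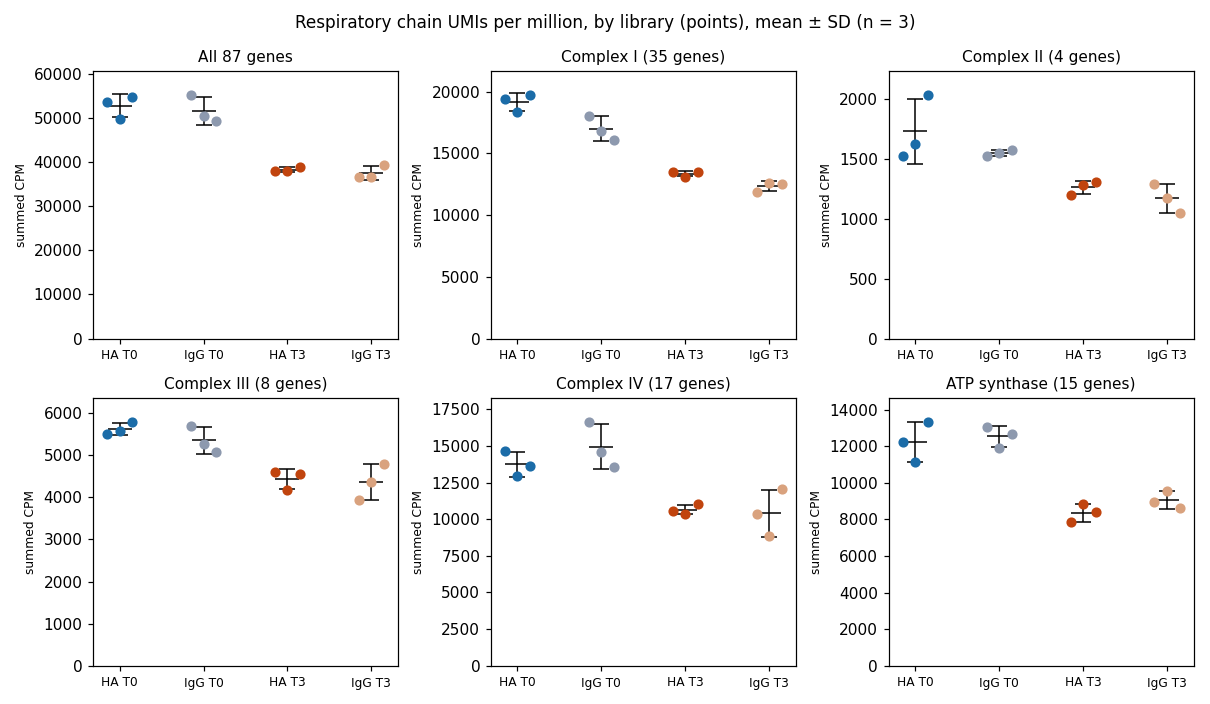
Summed CPM of all 87 genes and of the 5 complexes in each library (points), with the mean and SD of 3 libraries, on axes that start at 0. For the 87 genes the T0 libraries lay between 49268 and 55155 CPM and the T3 libraries between 36546 and 39220 CPM.

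In summed CPM the mean of each complex was lower at T3. In HA the mean summed CPM changed by -30.3% for complex I, -27.0% for complex II, -21.0% for complex III, -22.4% for complex IV and -31.6% for ATP synthase. In IgG the changes of the same sums were -27.5%, -24.3%, -18.5%, -30.3% and -27.9%. The size of these changes depends on the scaling. With library sizes corrected by TMM, which sets the bulk of genes to no change, the mean summed level was 52970 in HA T0 and 45350 in HA T3, and 50250 in IgG T0 and 32590 in IgG T3, so the fall was smaller in HA and larger in IgG than in CPM.

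Tested gene by gene in HA with TMM scaling, 16 of 84 members were lower at T3 and 0 were higher. All genes tested gave 15.1% lower and 18.7% higher calls (33.8% of 9441 in all), so the 19.0% of members that were lower are close to the background for that direction. On the higher side, 1 member, Ndufv1 of complex I, had an unadjusted p under 0.05 in edgeR (log2 fold change 0.41, adjusted p 0.0753), and DESeq2 called 0 higher and 16 lower. The median log2 fold change was -0.26 for members and -0.02 for all genes. Scaled by total counts, all genes had a median of -0.29 and members one of -0.53, and 49 members were called lower, beside 2660 of all 9441 genes. In CPM, 58 of the 84 members had every HA T3 library below every HA T0 library and 0 the reverse, against 35.2% and 15.6% of all genes.

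**Figure D4:**
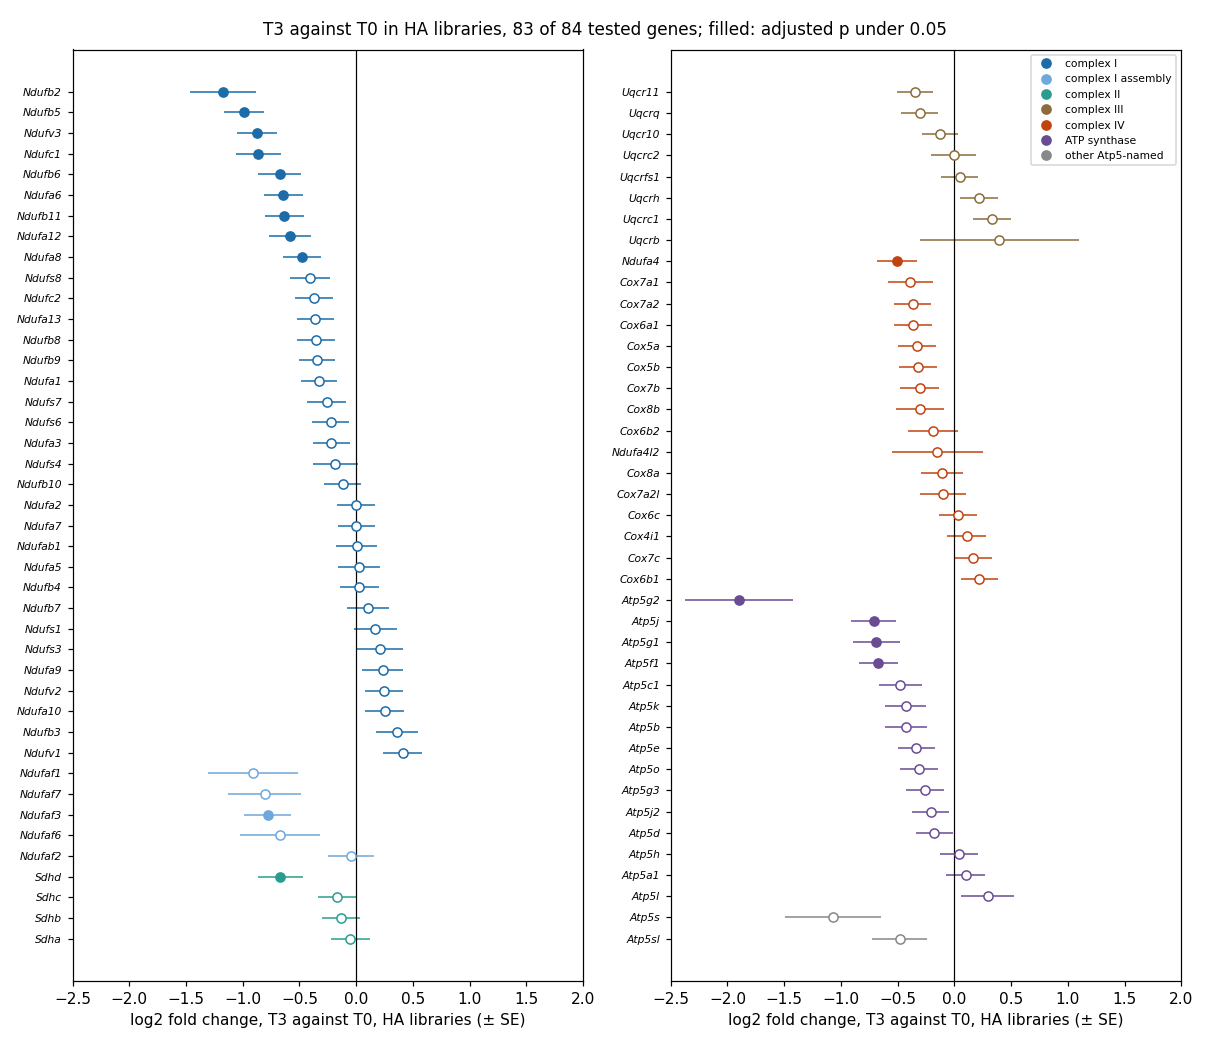
Log2 fold change (± SE) of T3 against T0 in HA libraries for 83 of the 84 tested genes, ordered within each complex, with filled points for the 16 genes past the threshold. Filled points lie between -0.48 (Ndufa8) and -1.90 (Atp5g2), and 61 of the 84 tested genes had a value below 0.

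The members with the clearest fall were accessory subunits of complex I, which surround its catalytic core. Ndufb5, a subunit of the membrane arm, was at 369, 350 and 472 CPM in HA T0 and at 151, 192 and 155 CPM in HA T3. Every T3 value was below every T0 value, with a log2 fold change of -0.99 (SE 0.18, adjusted p 0.00027). Its promoter (chr3:32736813-32737112 (plus strand)) is printed because it carries the YY1 letters at more than a single place, in capitals.
Ndufb5: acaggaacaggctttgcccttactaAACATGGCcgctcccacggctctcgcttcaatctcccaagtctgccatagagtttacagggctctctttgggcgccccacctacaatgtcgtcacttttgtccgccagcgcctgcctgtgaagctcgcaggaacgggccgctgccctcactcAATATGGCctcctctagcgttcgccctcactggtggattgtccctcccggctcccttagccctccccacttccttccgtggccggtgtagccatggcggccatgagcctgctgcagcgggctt
YY1 letters were in 5 of the 15 members with a promoter entry that fell in HA, NRF1 letters in 4 and ETS letters in 3. Among all 70 members with an entry, YY1 letters were in 17 (24.3%), NRF1 letters in 14 (20.0%) and ETS letters in 17 (24.3%). The window of Ndufv3, which also fell, held no match to the 3 sets. A link between these letters and the fall was not tested.

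Ndufv3, a small accessory subunit of the matrix arm, fell from 671, 652 and 793 CPM to 257, 366 and 332 CPM (log2 fold change -0.88, SE 0.18, adjusted p 0.000755). Ndufc1 was at 281, 334 and 424 CPM at T0 and at 119, 181 and 171 CPM at T3 (log2 fold change -0.86, SE 0.20, adjusted p 0.00214). Both genes had separate groups, as did Ndufb11 of the membrane arm, at 773, 746 and 940 CPM at T0 and 395, 499 and 420 CPM at T3 (-0.63, SE 0.17, adjusted p 0.00688). Thinned to the shallowest library, Ndufc1 was at -0.51 (adjusted p 0.276) and Ndufb11 at -0.49 (adjusted p 0.102).

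Also lower among complex I subunits were Ndufb2 (log2 fold change -1.18), Ndufb6 (-0.67), Ndufa6 (-0.64), Ndufa12 (-0.58) and Ndufa8 (-0.48), with adjusted p between 0.007 and 0.0336. Thinned to the shallowest library, Ndufb2 was at -1.83 (adjusted p 5.9e-07) and Ndufb6 at -0.74 (0.0275), while Ndufa12 was at -0.22 (0.688), Ndufa6 at -0.44 (0.156) and Ndufa8 at -0.53 (0.194). The 3′ ends of Ndufb2, Ndufb6 and Ndufaf3 overlap genes on the other strand (Braf, Smim27 and Impdh2), and their reads cannot be told apart if counting ignored strand. The same holds for Uqcrc2 (with Pdzd9) and Ndufa4l2 (with Shmt2). Atp5o has 2 entries in the annotation, and only the first, at chr16:91684398-91926982, was examined. Its 3′ end overlaps Donson on its own strand, and whether the other entry overlaps a gene was not tested. Of the 6 assembly factors, Ndufaf3 fell from 86.4, 67.6 and 94.1 CPM to 35.2, 42.8 and 42.0 CPM (log2 fold change -0.78, SE 0.21, adjusted p 0.00665). Ndufaf4 was too low for a test, and Ndufaf1, Ndufaf2, Ndufaf6 and Ndufaf7 did not pass, with log2 fold changes from -0.91 to -0.05.

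ATP synthase had 4 of 15 members lower in HA at T3. Atp5g2 was at 4.91, 4.01 and 3.11 CPM in HA T3, below its HA T0 values of 26.1, 7.26 and 19.5 (log2 fold change -1.90, SE 0.48, adjusted p 0.00489), and these T3 values rest on 6, 6 and 4 UMIs. Atp5j (-0.71, adjusted p 0.00807), Atp5g1 (-0.69, 0.0137) and Atp5f1 (-0.67, 0.00515) were lower too, and after thinning Atp5j was at -1.13 (adjusted p 0.00148) and Atp5g1 at -0.30 (adjusted p 0.482). Atp5g1 was at 443, 329 and 512 CPM in HA T0 and at 162, 267 and 230 CPM in HA T3, whereas Atp5g3 was at -0.26 on the log2 scale (adjusted p 0.239). Atp5a1 and Atp5b of the catalytic head, Atp5c1 and Atp5d of the central stalk and Atp5o of the peripheral stalk did not pass, with log2 fold changes between -0.48 and 0.10.

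In complex II, Sdhd, a membrane anchor, fell from 148, 139 and 223 CPM to 78.6, 102 and 84.1 CPM (log2 fold change -0.67, SE 0.20, adjusted p 0.0136). Its catalytic partners were at -0.05 (Sdha, adjusted p 0.846) and -0.14 (Sdhb, 0.551). In complex IV, 1 of 16 tested members, Ndufa4, was lower (-0.50, adjusted p 0.0323, and -0.37 with adjusted p 0.527 after thinning), and Cox4i1, the common form of subunit 4, was at 0.11 (adjusted p 0.650). In complex III, edgeR and DESeq2 called 0 of 8 in either direction, 1 had an unadjusted p under 0.05, and the median was 0.02.

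The 18 subunits listed as core are not all catalytic, with Cox4i1, Cox5a and Cox5b of complex IV and Atp5o of the peripheral stalk among them. Of these 18, Sdhd was the 1 called, and their median log2 fold change was -0.03. The core complex I subunits Ndufs1, Ndufs3 and Ndufv1 were at 0.17, 0.21 and 0.41 on this scale, with adjusted p between 0.0753 and 0.511. With total counts as scaling these log2 fold changes were -0.10, -0.05 and 0.14. The list left out the core complex I subunits Ndufs7, Ndufs8 and Ndufv2, which were not called in HA. Ndufs8 was at 445, 341 and 425 CPM in HA T0 and at 239, 257 and 265 CPM in HA T3. Ndufs7 was at 635, 587 and 584 CPM against 486, 347 and 427 CPM. Ndufv2 overlapped, at 402, 372 and 402 CPM against 444, 343 and 374 CPM. The difference between the listed core subunits and the other members was not tested, and in IgG the listed subunits had a median of -0.56 beside -0.53 for all members.

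Leaving out each library left 8 to 21 members called in HA. Ndufb5, Ndufv3, Ndufc1, Ndufb11, Ndufaf3 and Atp5g2 kept their call each time, and without HA T3 replicate 3 so did the other 10. Without HA T3 replicate 4, Atp5f1, Atp5g1, Atp5j, Ndufa12, Ndufa4, Ndufa8, Ndufb2 and Sdhd lost theirs, and without HA T3 replicate 1, Atp5g1, Ndufa12, Ndufa4, Ndufa6, Ndufa8, Ndufb6 and Sdhd. Among T0 libraries, replicate 1 was needed for Atp5j, Ndufa12 and Ndufa8, replicate 2 for Ndufa4 and Ndufa8, and replicate 4 for Ndufa4 and Sdhd.

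Related gene lists give the setting, beside 15.1% lower and 18.7% higher calls among all genes tested in HA. Of 65 mitochondrial ribosomal protein genes tested in HA, 16 were lower and 1 higher at T3 (median log2 fold change -0.22), led by Mrpl34 (-1.16, adjusted p 4.6e-05) and Mrpl42 (-1.30, adjusted p 5.8e-05). Of 30 tested assembly factors not named Ndufaf, most for complexes II to V and some for complex I, 12 were lower and 0 higher (median -0.32), among them the complex IV copper and assembly factors Coa6 (-1.69, adjusted p 3.5e-05) and Coa4 (-2.43, adjusted p 0.000785). The TCA cycle, which feeds complexes I and II, had 3 of 12 lower (Idh3a, Suclg1 and Idh3b) and 0 higher, and cytochrome c1 (Cyc1) fell by 0.61 on the log2 scale (adjusted p 0.016).

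With TMM scaling, glycolysis genes went the other way in HA, with 6 of 17 higher and 0 lower (median 0.31). The share called higher was 35.3%, beside 18.7% of all genes. In summed CPM the 20 glycolysis genes counted overlapped, at 4015 to 5240 in HA T0 and 4599 to 5558 in HA T3. Pfkfb3, which makes the activator of the glycolytic step at phosphofructokinase, rose by 2.42 (SE 0.23, adjusted p 7e-08), the glucose transporter Slc2a1 by 0.80 (adjusted p 0.00512) and lactate dehydrogenase Ldha by 0.67 (adjusted p 0.00388). In IgG, 12 glycolysis genes were tested, with 1 higher and 0 lower (median 0.08). That gene was Pfkfb3, at 2.37 (adjusted p 0.00237), so its rise was not limited to HA libraries. The genes of the cytosolic ribosome, as abundant housekeeping transcripts, had 8 of 75 higher and 5 lower in HA (median 0.20). Among regulators of mitochondrial biogenesis, Pprc1, a serum-inducible relative of PGC-1, rose by 2.67 (adjusted p 2.3e-06) and Yy1 fell by 0.87 (adjusted p 0.045). Pprc1 also rose in IgG, by 2.01 (adjusted p 0.0305). Its change in HA less that in IgG was 0.75 (adjusted p 0.713).

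**Figure D5:**
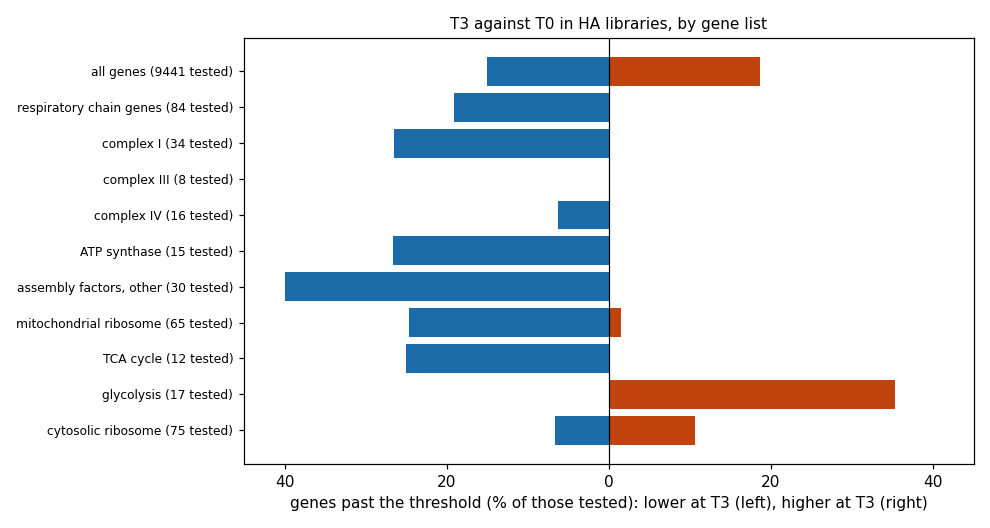
Percent of tested genes past the threshold in T3 against T0 of HA libraries, lower to the left and higher to the right, for all genes, respiratory chain genes, 4 complexes and 5 related lists. Of the lists drawn, glycolysis had calls on the higher side with 0 on the lower. Calls for respiratory chain genes, complex I, complex IV, ATP synthase, the TCA cycle and the other assembly factors (12 of 30) were all lower.

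Markers of other cells moved between T0 and T3 in HA libraries as well. Mesothelial markers, 6 of 6 tested, were lower and summed to 196 to 259 CPM at T0 and 27.3 to 36.8 CPM at T3, and 5 of 8 fibroblast markers were lower (1068 to 1421 CPM against 322 to 559). Of the smooth muscle markers 5 of 14 were lower (19028 to 28903 CPM against 14894 to 17421), of the macrophage markers 4 of 9 (688 to 1355 against 408 to 713), of the markers of interstitial cells of Cajal 3 of 5 (3147 to 4185 against 1566 to 2160) and of the epithelial markers 3 of 11 (214 to 916 against 104 to 247). Of 13 neuronal markers tested 6 were higher, and of 14 glial markers 4 were higher and 1 lower, with glial sums of 17792 to 22274 CPM at T0 and 22695 to 25968 CPM at T3. No marker of these lists was at 0 in every library of HA T0 or HA T3. HA T3 libraries were also shallower than HA T0 libraries. The part of these shifts in the fall of respiratory chain genes was not tested.

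In IgG libraries, which share no library with the HA comparison but come from the same animals, 77 members were tested and 5 were lower at T3, 6.49% beside a background of 5.46% of 5219 genes (1.03% lower and 4.43% higher). On the higher side edgeR and DESeq2 called 0, with 0 at an unadjusted p under 0.05. The members were Atp5g2, Ndufb2 (log2 fold change -1.17, adjusted p 0.0342), Ndufb6 (-1.08, 0.0439), Atp5o (-1.02, 0.0474) and Ndufb11 (-1.04, 0.0474). The median of members was -0.53, with -0.02 for all genes. Other abundant housekeeping lists had like medians in IgG, at -0.57 for the cytosolic ribosome (71 of 74 genes below 0) and -0.54 for the mitochondrial ribosome (45 of 53). Of the members, 43 of 77 had every T3 library below every T0 library in CPM, against 12.6% of all genes.

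Atp5g2 was the extreme member. Its IgG libraries held 24, 30 and 75 UMIs at T0 and 0, 0 and 1 UMI at T3. Pooled over libraries this is 57.0 CPM against 2.33 CPM, a ratio of 24.5 with an exact 95% interval of 4.31 to 973 for counting error, and the adjusted p was 0.00332. The HA and IgG libraries of T3 were both low for this gene, at 16 and 1 UMIs in all.

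Ndufb2, Ndufb6, Ndufb11 and Atp5o each lost their call in IgG when IgG T0 replicate 1, 2 or 4 or IgG T3 replicate 3 or 4 was left out, Ndufb2 and Ndufb11 also without IgG T3 replicate 1. Leaving out 1 library left 1 to 3 members, and without the 2 shallowest IgG T3 libraries 1 member, Atp5g2, was called and the median was -0.42. That fit has 1 library on the T3 side and takes its spread from the T0 libraries. Ndufb5, the member with the smallest p in HA, was at 337, 346 and 343 CPM in IgG T0 and 329, 250 and 185 CPM in IgG T3 (log2 fold change -0.49, adjusted p 0.347).

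The last comparison set the time course in HA against that in IgG. Of 85 members, edgeR and DESeq2 called 0, beside a background of 0.330% of 10314 genes, and 13 members had an unadjusted p under 0.05 in edgeR. The smallest p-values belonged to Uqcrfs1, the Rieske protein of complex III (difference of log2 fold changes 1.00, adjusted p 0.203), Ndufa9 (1.08, 0.217), Ndufab1 (1.23, 0.236), Atp5o (0.81, 0.340) and Atp5g3 (0.72, 0.428). A positive value means less fall, or more rise, in HA than in IgG. With the animal as a block, 2 members passed, beside 1.53% of all genes: Ndufab1 at 1.32 (adjusted p 0.0252) and Uqcrb at 1.74 (adjusted p 0.00582). The median difference of members was 0.39 with TMM scaling and 0.02 with total counts, when that of all genes was 0.18 and -0.18. Without the 2 shallowest IgG T3 libraries, with 1 IgG T3 library left, it was 0.13 for members and 0.15 for all genes. A fall in HA that was not in IgG was thus not shown for any single respiratory chain gene.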

How the data were processed

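RNA of 12 RiboTag pull-down libraries (3 each of HA T0, IgG T0, HA T3 and IgG T3) was sequenced by a bulk MARS-seq protocol that reads 3′ ends. The authors trimmed reads with cutadapt, mapped uniquely aligning reads with STAR 2.4.2a to mm10, and counted UMIs per gene with HTSeq in a window from 1000 bases before to 100 after each 3′ end. The deposited values are raw UMI counts, whole numbers without normalisation, and the use of strand was not given in the sources used here. Which libraries shared an amplification pool, of at most 8 samples, is not stated. Uniquely mapped reads undercount genes with near-identical copies.

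CPM were computed from library totals (88136 to 2870591). Where a library had 0 counts, up to 3 remain possible, 1.05 CPM in the deepest and 34.0 CPM in the shallowest library, for counting error only. Each contrast was fitted on the whole table with edgeR 4.0.16 (R 4.3.3, TMM, filterByExpr, robust quasi-likelihood F-test) and adjusted over all genes tested, with a threshold of 0.05. Standard errors came from the F statistic. The 2-group contrasts used their 6 libraries and the interaction all 12. Of the 87 members, 76 passed the filter in all 5 contrasts, 77 were above 0 in every library and Ndufa11 and Ndufaf4 were tested in none. Named genes were core subunits, isoform sets, assembly factors, and up to 8 members a direction with the smallest p. The members, lists and tests were chosen with earlier results of these data known. HA and IgG libraries of an animal come from 1 homogenate, which pairs them, and their deviations from the group means correlated at 0.0875 to 0.271. Numbers shared between T0 and T3 name different animals. Animals are separate mice, so p-values of T3 against T0 measure the spread between animals. The HA against IgG and interaction fits, except those with the animal as a block, treated the paired libraries of an animal as independent.

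Alternatives were RLE or total-count scaling, no filter, at least 5 counts in 1 library, DESeq2 1.42.0, 12 libraries in 1 fit, thinning to 88136 counts, a replicate block, leaving out each library and, added after the data were seen, leaving out the 2 shallowest IgG T3 libraries. Scripts were tested on simulated data. Positions are from GENCODE M21 (GRCm38), promoters from RefSeq (GRCm38.p6), where 70 members matched by symbol. The values of 1 member are not reported here, though it is counted in the totals.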

Additional observations from a re-analysis of the deposited data

Results flagged for a closer look

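Ndufab1 and Uqcrb changed differently with time in HA and in IgG libraries when the animal was a block, by 1.32 (adjusted p 0.0252) and 1.74 (adjusted p 0.00582) in edgeR's quasi-likelihood test. Without the block the differences were 1.23 (adjusted p 0.236) and 1.42 (adjusted p 0.554). Ndufab1 stood at 536, 545 and 361 CPM in IgG T0 and at 159, 130 and 314 CPM in IgG T3, while HA T0 held 242, 181 and 248 CPM and HA T3 173, 196 and 191 CPM. Uqcrb stood at 464, 321 and 312 CPM in IgG T0 and at 216, 130 and 217 CPM in IgG T3, with 161, 60.9 and 31.7 CPM in HA T0 and 118, 78.9 and 87.2 CPM in HA T3. Both values rest on the IgG T3 libraries, which held the fewest counts, and without the 2 shallowest of these, unblocked and with 1 IgG T3 library left, the differences were 0.52 (adjusted p 0.656) for Ndufab1 and 1.05 (adjusted p 0.788) for Uqcrb. With 1 library in that group these p-values rest on the spread of the other groups.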

How the results depend on the processing

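Medians below are log2 fold changes of the members. Percentages are the share of tested members called, beside the share of all genes called in the same fit, in either direction. For HA against IgG at T0, thinning to the shallowest library left 9 members past the threshold (13.0% beside 33.5%) with a median of -0.191. It turned Atp5g1, not called in either, to -0.193. The replicate block, here the animal, gave 23 members (27.1% beside 38.8%). At T3 total counts gave 8 members (10.3% beside 21.6%) and a median of 0.0193. No filter gave 8 (9.20% beside 16.6%) and 0.364, and the fit of 12 libraries 16 (18.8% beside 20.5%) and 0.391. The filter on 5 counts gave a median of 0.304, DESeq2 9 members (11.5% beside 20.6%) and thinning a median of -0.172. Without the 2 shallowest IgG T3 libraries the median was 0.111. For T3 against T0 in HA, total counts gave 49 members (58.3% beside 40.9%) and a median of -0.527, and thinning gave -0.372. In IgG no filter gave 11 members (12.6% beside 4.03%) and a median of -0.644. The fit of 12 libraries gave 20 members (23.5% beside 6.84%). Thinning gave 3 (4.41% beside 7.54%) and the replicate block 3 (3.90% beside 5.54%). Without the 2 shallowest IgG T3 libraries the median was -0.420. The median of the interaction was 0.228 with RLE, 0.0203 with total counts, 0.211 with DESeq2, 0.144 thinned and 0.131 without the 2 shallowest libraries. The replicate block called 2 members (2.35% beside 1.53%). TMM library sizes put the summed members at 45350 (HA T3) and 32590 (IgG T3). Leaving out the 2 shallowest leaves 1 IgG T3 library, assumed to vary like the other groups. The cause of these shifts was not tested, except that thinning and leaving out libraries keep fewer counts.

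Leaving out 1 library at a time, HA against IgG gave 8 to 12 members and medians of -0.0549 to 0.113 at T0, and 2 to 9 members and 0.0497 to 0.338 at T3. T3 against T0 gave 8 to 21 members in HA, and 1 to 3 members and -0.634 to -0.505 in IgG, and the interaction 0 to 2 members and 0.264 to 0.451. Cox6b2, not called between T0 and T3 in HA, ranged from -0.415 to 0.0282. The numbers shared between T0 and T3 libraries mark different animals, with correlations of 0.0107 to 0.166 between their deviations. A replicate block on them gave 21 members in HA, 1 higher and 20 lower (25.0% beside 36.4% of all genes). The depth of the IgG T3 libraries limits every value that rests on them.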
